A study of Mus musculus with 8 samples.

Results

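Autophagy is the process by which a cell wraps part of its own cytoplasm in a membrane and delivers it to the lysosome for breakdown. Described here are 42 genes of that route and of the lysosome, taken from a list of gene symbols drawn up with earlier results of these data known, in cultured mouse spermatogonial stem cells. Of the 42 genes, 41 had a microarray probe set carrying their symbol alone, out of 19938 genes measured in this way. Optn, a cargo receptor, is not analysed here. Where a gene had more than 1 such probe set, the brightest over all 8 arrays stood for it, and 40 of the 41 genes lay above the median signal of all probe sets (6.94 on the log2 scale), with Atg16l2 (6.81) just below it.

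Spermatogonial stem cells are the germ cells of the testis that renew themselves and feed sperm production. In the group called young short culture, 3 arrays held total RNA of such cells from donors of 8 days, grown in vitro for between 7 and 10 weeks. Young long culture, again 3 arrays, used donors of the same age and a culture of between 14 and 18 months. Serial transplant long culture, 2 arrays, had the same long culture but cells carried through serial transplantation, with a donor age of 1500 days in the label. Age and transplantation therefore cannot be told apart in that group, and no array combined serial transplantation with short culture. The labels name no strain, genotype or origin of the replicates, so every p-value measures the spread between arrays, which may be technical. Values are the deposited log2 signals, in which 1 unit is a doubling, and array medians lay between 6.90 and 6.98. Precision is limited by the small number of arrays.

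In autophagy, the kinase Ulk1 with Atg13 and Rb1cc1 starts the process, a lipid kinase complex built on Pik3c3 and Becn1 marks the site, and Atg9a, Atg2 and Wipi proteins bring lipid and read the mark. The conjugation machinery (Atg3, Atg4, Atg5, Atg7, Atg10, Atg12, Atg16l1) then attaches ubiquitin-like proteins to the growing membrane, where receptors such as Sqstm1 (p62) tether cargo. The closed vesicle fuses with the lysosome, whose membrane is rich in Lamp1 and Lamp2 and whose interior holds acid hydrolases such as the cathepsins. Tfeb is a transcription factor that activates many lysosomal genes through a palindromic element built around an E-box. In spermatogonial stem cells, as in other long-lived stem cells, this route is studied for its part in the turnover of proteins and mitochondria.

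The windows from 250 bases before to 50 bases after annotated transcription starts (RefSeq, assembly GRCm38.p6) were searched on both strands. The search was for CACGTG, the E-box core of the element described for Tfeb. Windows were found for 34 of the 41 genes. The core was present in 8 of them, or 23.5%, namely Atg3, Atg5, Atg7, Atg14, Lamp1, Ctsa, Ctsd and Ctsl. It occurred in 8.09% of the 27025 genes with a window and in 7.15% of all 32851 windows. The longer word GTCACGTG, which contains the core, occurred in 6 genes (17.6%, against 2.55% of all genes), and that word followed by AC, the full palindrome, in 0 of 34 (0.37% of all genes). Among the 11 genes that fell in at least 1 comparison below, 10 had a window and 2 of these held the core (Ctsd and Ctsl), against 6 of 24 among the other genes. The 250 bases before the start are shown for 3 lysosomal genes that the results turn on, in lower case with each E-box core in capitals. The 3 differ in the number of cores, and in young long culture Ctsd and Lamp2 fell while Lamp1 did not pass. Ctsd lies at chr7:142387828-142388077 on the minus strand, Lamp1 at chr8:13158911-13159160 on the plus strand and Lamp2 at chrX:38456461-38456710 on the minus strand.
Ctsd: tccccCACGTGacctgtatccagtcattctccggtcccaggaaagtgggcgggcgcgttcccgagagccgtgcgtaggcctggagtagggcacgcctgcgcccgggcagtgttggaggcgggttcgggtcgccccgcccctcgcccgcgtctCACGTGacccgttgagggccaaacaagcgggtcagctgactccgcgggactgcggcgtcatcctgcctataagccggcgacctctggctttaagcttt
Lamp1: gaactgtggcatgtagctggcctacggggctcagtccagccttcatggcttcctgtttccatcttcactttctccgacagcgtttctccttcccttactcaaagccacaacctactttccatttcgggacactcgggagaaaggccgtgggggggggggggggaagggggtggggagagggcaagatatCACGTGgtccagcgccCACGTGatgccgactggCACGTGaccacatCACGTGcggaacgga
Lamp2: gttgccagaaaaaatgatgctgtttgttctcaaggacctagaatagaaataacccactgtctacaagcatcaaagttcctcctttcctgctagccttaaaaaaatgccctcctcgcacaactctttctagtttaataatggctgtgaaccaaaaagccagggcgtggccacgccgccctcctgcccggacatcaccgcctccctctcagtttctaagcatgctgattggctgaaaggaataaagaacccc
Ctsd has a core from 245 to 240 and another from 98 to 93 bases before the start. Lamp1 has 4 within 61 bases of the start, and in Lamp2 the letters CACGTG are not in this window. A match is a description of the letters and says nothing about binding.

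Of the short-culture arrays replicate 2 was the least like the others, with a mean correlation over probe sets of 0.991 to them (0.993 for each of those within the group) and the lowest array weight of all 8 (0.33), so the counts of genes that fell are given with and without it. Fibroblast markers were abundant on all arrays and moved with culture time, as described after the gene groups. In bulk RNA, fewer cells of a type and less RNA per cell cannot be told apart, which holds for every change below.

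The first comparison holds donor age constant and sets young long against young short culture. Genes for lysosomal hydrolases, for Lamp2, for Sqstm1, Gabarap and Gabarapl1 were lower after long culture. None of the 25 listed genes of initiation, lipid kinase, membrane supply, conjugation and Tfeb passed the test. Of 41 genes, 10 fell and 0 rose (limma fitted on all 8 arrays, Benjamini-Hochberg adjusted p under 0.05 over 28944 probe sets). Across all genes measured 6.69% fell and 6.1% rose, and among the 10898 genes above the median signal 8.24% fell and 9.68% rose. The falls ranged from -0.81 for Ctsb to -0.47 for Ctsz on the log2 scale. The median over all 41 genes was -0.05, beside -0.04 for all genes and 0.04 for those above the median signal. On every long-culture array 14 of the 41 genes were lower, and 7 higher, than on every short-culture array, where 17.8% and 16.2% of all genes were. Among genes above the median signal, these shares were 17.8% and 25.6%. Rb1cc1 and Pik3r4, which did not pass, rose past the threshold in 6 and 3 of the 16 alternatives, as given with the core genes. Under quantile normalization the 10 genes kept their negative sign, while Ulk2, Atg2b, Wipi2 and Nbr1 changed sign. Median centring adds the same small step to every gene, less than any of the 10 falls, and turned Map1lc3a, Map1lc3b and Lamp1, which lay just below 0, so no direction is given for these 7 genes. The calls changed with single arrays while the falls kept their sign. With each array left out in turn, Ctsb and Ctsd passed every time, Hexa ran from -0.89 to -0.55, Gabarapl1 from -0.80 to -0.48, Sqstm1 from -0.72 to -0.50 and Ctsl from -0.78 to -0.46, and the count of the 41 genes that fell was 2 without young long-culture replicate 3, 6 without replicate 1 or 2 of that group, and between 8 and 11 in the other cases. Without short-culture replicate 2, 9 of the 10 passed, with Lamp2 the exception.

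The lysosomal enzymes made up the largest block, with 6 of 7 lower in young long culture and a median change of -0.61, beside which 15 of 19 fibroblast markers fell with a median of -0.74; their part in the result was not tested. Ctsd, the main aspartic protease of the lysosome, read 12.38, 12.52 and 12.13 in short culture, 11.62, 11.62 and 11.63 in young long culture, and 11.88 and 11.55 in serial transplant long culture. Every short-culture array was above every long-culture array, and the young long-culture arrays differed from each other by far less than the short-culture ones. Ctsd thus fell 1.65-fold in young cells (-0.72 ± 0.12 SE log2, n = 3 and 3, limma adjusted p = 0.00585), the smallest p-value of the 41 genes. Ctsb, a cysteine protease, read 11.29, 11.53 and 10.92 in short culture, 10.47, 10.31 and 10.53 in young long culture, and 10.70 and 10.21 in serial transplant long culture. Here too the groups did not overlap, and the fall was 1.75-fold (-0.81 ± 0.17, adjusted p = 0.0123).

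Ctsl, a further cysteine protease, read 11.22, 11.495 and 10.86 in short culture, 10.53, 10.67 and 10.54 in young long culture, and 10.48 and 10.54 in serial transplant long culture. Short-culture replicate 3 came closest to the long-culture arrays, as it also did for Ctsb. Ctsl fell 1.53-fold (-0.61 ± 0.14, adjusted p = 0.0208). Ctsz, a carboxypeptidase of the same family, read 11.34, 11.38 and 11.16 in short culture, 10.68, 10.91 and 10.90 in young long culture, and 10.94 and 10.97 in serial transplant long culture, with no overlap between short and long. Its fall was the smallest of the 10, at -0.47 ± 0.11 (adjusted p = 0.0181).

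Hexa, the alpha subunit of beta-hexosaminidase, which trims gangliosides, read 10.51, 11.18 and 10.56 in short culture, 9.97, 10.03 and 9.96 in young long culture, and 10.18 and 10.11 in serial transplant long culture. Short-culture replicate 2 was well above the rest of its group, and the other two replicates still lay above all long-culture arrays. Hexa fell 1.70-fold (-0.77 ± 0.16, adjusted p = 0.0116). Neu1, the lysosomal sialidase, was dimmer, with 8.24, 8.50 and 8.12 in short culture, 7.89, 7.73 and 7.80 in young long culture, and 7.80 and 7.70 in serial transplant long culture. The same order held, and Neu1 changed by -0.48 ± 0.11 (adjusted p = 0.0222). Ctsa, the protective protein that holds Neu1 and beta-galactosidase in a complex, differed by -0.35 ± 0.11 with arrays that did not overlap and missed the threshold (adjusted p = 0.0625).

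**Figure D1:**
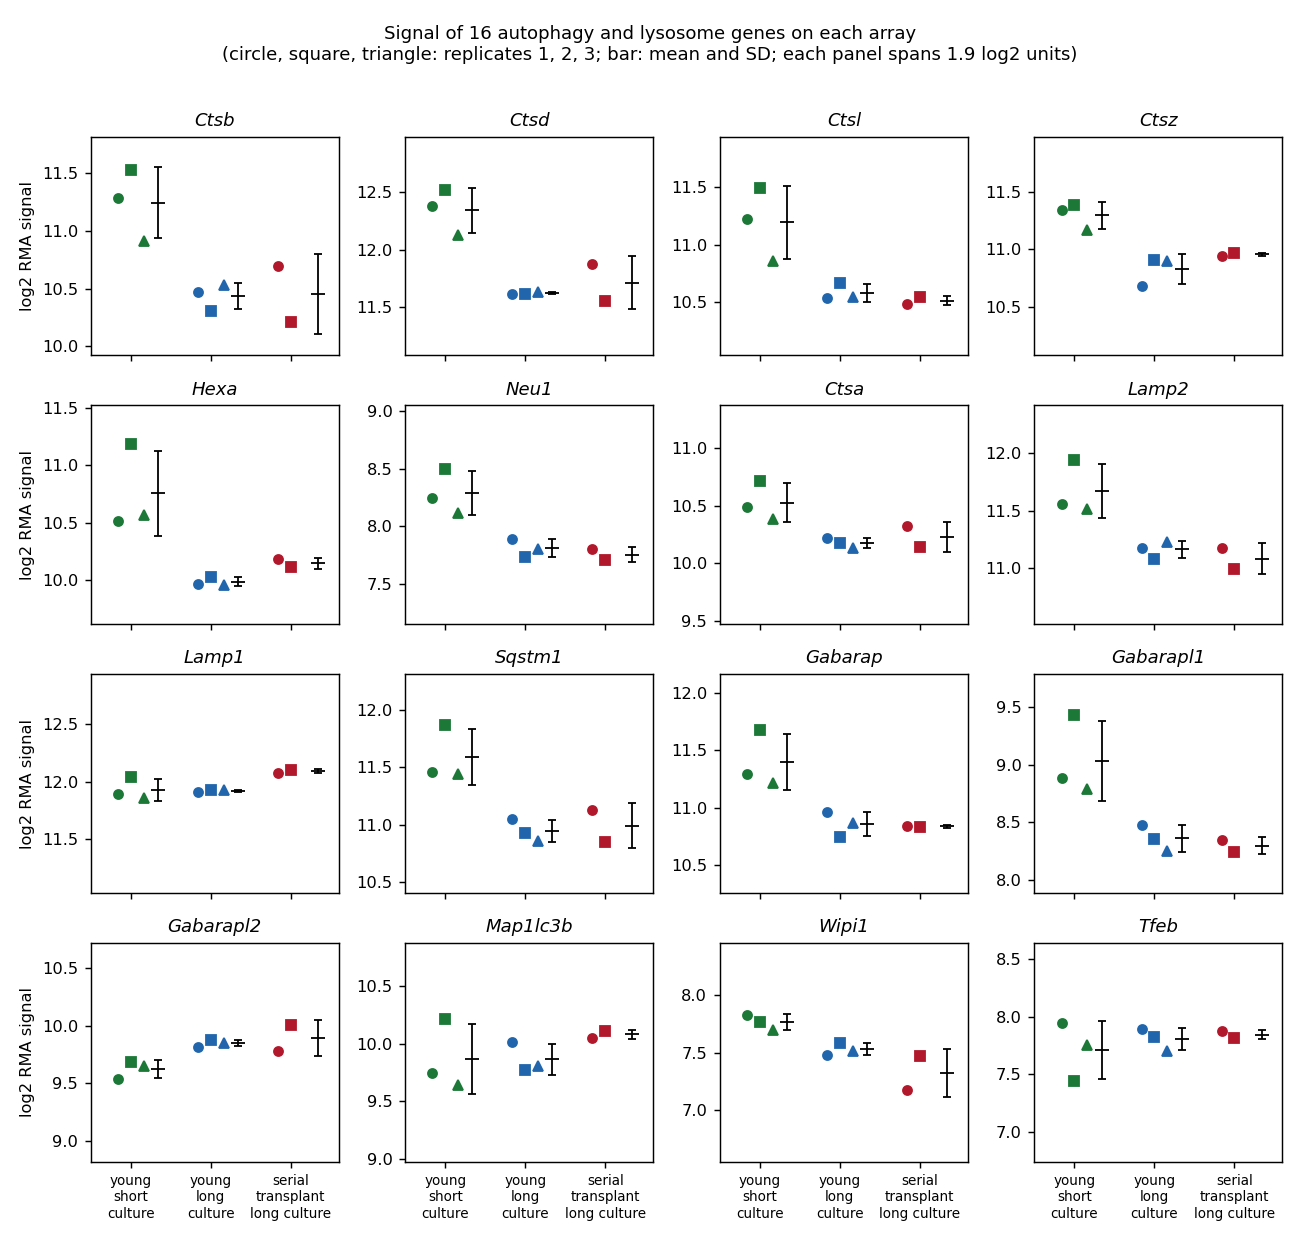
Log2 RMA signal (vertical axis) of 16 autophagy and lysosome genes on each of the 8 arrays, by group on the horizontal axis; circles, squares and triangles are replicates 1, 2 and 3 and the bar gives mean and SD. Ctsd, Ctsb, Hexa and Gabarapl1 are higher on all 3 short-culture arrays than on all 5 long-culture arrays, while Lamp1, Map1lc3b and Tfeb overlap between the young groups.

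Of Lamp1 and Lamp2, the glycoproteins that line the lysosomal membrane, Lamp2 fell and Lamp1 did not pass. Lamp2, whose A isoform is the receptor of chaperone-mediated autophagy, read 11.56, 11.94 and 11.51 in short culture, 11.18, 11.08 and 11.23 in young long culture, and 11.18 and 10.99 in serial transplant long culture. All short-culture values were above all long-culture values, and Lamp2 fell 1.42-fold in young cells (-0.51 ± 0.13, adjusted p = 0.0257). Lamp1 read 11.89, 12.04 and 11.86 in short culture, 11.91, 11.93 and 11.93 in young long culture, and 12.08 and 12.11 in serial transplant long culture. The young groups overlapped, and the difference of -0.01 had a 95% interval from -0.21 to 0.19, which does not include a fall of the size seen for Lamp2. Within each array, the log2 difference of the Lamp1 and Lamp2 signals was 0.26 ± 0.14 (SD) in short culture, 0.76 ± 0.08 in young long culture and 1.01 ± 0.15 in serial transplant long culture. The probe sets differ in response, so only the change of that difference between groups can be read, and it was higher on every long-culture array than on every short-culture array. Between the young groups the two-sided exact permutation p was 0.1, the smallest that 3 arrays against 3 allow, or 0.2 adjusted over 18 such pairs of related genes, of which 9 did not overlap. Most of these 9 pairs include Gabarap, Gabarapl1 or Lamp2, which fell, so they are not separate results. No share over other gene pairs was computed.

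Gabarap, which encodes a ubiquitin-like protein attached to the autophagosome membrane, read 11.30, 11.67 and 11.22 in short culture, 10.96, 10.75 and 10.87 in young long culture, and 10.85 and 10.83 in serial transplant long culture. Gabarapl1 read 8.89, 9.43 and 8.79 in short culture, 8.48, 8.35 and 8.25 in young long culture, and 8.35 and 8.24 in serial transplant long culture. Both were highest in short-culture replicate 2 and showed no overlap between short and long culture. The falls were 1.45-fold for Gabarap (-0.54 ± 0.13, adjusted p = 0.0211) and 1.60-fold for Gabarapl1 (-0.67 ± 0.15, adjusted p = 0.0190).

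Map1lc3b, whose lipid-bound protein is the usual marker of autophagosomes, read 9.75, 10.21 and 9.64 in short culture, 10.02, 9.77 and 9.81 in young long culture, and 10.05 and 10.11 in serial transplant long culture. These values overlapped, and the difference of -0.0014 ± 0.14 had a 95% interval from -0.32 to 0.31. A second probe set of Map1lc3b, at a mean of 9.74, gave a difference of -0.0012. Map1lc3a differed by -0.03 ± 0.10, with overlapping arrays. Gabarapl2 was measured at 9.53, 9.69 and 9.65 in short culture, 9.82, 9.87 and 9.85 in young long culture, and 9.78 and 10.00 in serial transplant long culture. Its arrays did not overlap, yet the difference of 0.22 ± 0.10 did not pass (limma adjusted p = 0.180). A second, dim probe set of Gabarapl2, at a mean of 5.75, gave 0.37 ± 0.15 and did not pass either (adjusted p = 0.144).

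Of the cargo receptors, Sqstm1 fell and Nbr1 did not pass. Sqstm1, which binds ubiquitin and is itself degraded by autophagy, read 11.46, 11.87 and 11.44 in short culture, 11.05, 10.93 and 10.86 in young long culture, and 11.13 and 10.85 in serial transplant long culture. The groups did not overlap, and the RNA fell 1.56-fold (-0.64 ± 0.13, adjusted p = 0.0126). Nbr1, a related receptor with the same domain types, had overlapping arrays and a difference of 0.05 ± 0.09 (adjusted p = 0.753).

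None of the 25 genes of initiation, lipid kinase, membrane supply, conjugation and Tfeb passed in this comparison, in which 7 had an unadjusted p under 0.05, where 28.6% of all genes and 38% of those above the median signal did, and the smallest adjusted p was 0.0518. Their median difference was 0.04, beside 0.04 for all genes above the median signal, and the range ran from -0.33 (Atg16l2) to 0.39 (Pik3r4). Ulk1 read 8.51, 8.56 and 8.62 in short culture, 8.31, 8.15 and 8.30 in young long culture, and 8.40 and 8.39 in serial transplant long culture. The groups did not overlap and the difference of -0.31 ± 0.09 missed the threshold narrowly (adjusted p = 0.0532). Rb1cc1, the scaffold of the Ulk1 complex, differed the other way, by 0.37 ± 0.11 (adjusted p = 0.0518), again without overlap. It passed as a rise in 6 of 16 alternatives (array weights, no dim probe sets, quantile normalization, median centring, gene means and without young long-culture replicate 2), with adjusted p from 0.0178 to 0.183 over them all. Atg13 differed by 0.27 ± 0.13 with overlap, and Ulk2 by 0.005 ± 0.11.

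In the lipid kinase complex, 4 of 5 genes were higher on every young long-culture array than on every short-culture array, a pattern seen in 16.2% of all genes and 25.6% of those above the median signal. Becn1 read 9.47, 9.42 and 9.41 in short culture, 9.74, 9.56 and 9.62 in young long culture, and 9.44 and 9.71 in serial transplant long culture. Its difference of 0.21 ± 0.10 did not pass (adjusted p = 0.230), and neither did those of the regulatory subunit Pik3r4 (0.39 ± 0.12, adjusted p = 0.0615), the autophagy-specific subunit Atg14 (0.34 ± 0.13, adjusted p = 0.115) and the catalytic subunit Pik3c3 (0.16 ± 0.10, adjusted p = 0.357). Pik3r4 passed as a rise with array weights, without dim probe sets and with median centring (adjusted p from 0.0310 to 0.191 over the 16 alternatives). Uvrag, which takes the place of Atg14 in a second form of the complex, differed by -0.09 with overlapping arrays.

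The 10 conjugation genes lay between -0.33 and 0.21. Atg7, the activating enzyme of both conjugation branches, was lower on every long-culture array, by -0.30 ± 0.10, and did not pass (adjusted p = 0.0823). Atg12, the conjugated ubiquitin-like protein, differed by 0.19, its target Atg5 by 0.15 and their partner Atg16l1 by 0.12, while its transfer enzyme Atg10 differed by -0.05. Atg3, the transfer enzyme of the other branch, differed by -0.08, and the processing proteases Atg4b, Atg4c and Atg4d by -0.05, 0.21 and 0.04. Adjusted p-values of these 8 genes lay between 0.277 and 0.890. A further processing protease, Atg4a, is not among the 41 genes and is given with the wider set. The 5 membrane-supply genes lay between -0.24 (Wipi1) and 0.05 (Atg2b), whose second probe set gave -0.07. Atg2a, a lipid transfer protein like Atg2b, differed by -0.18 ± 0.16, and Atg9a, the lipid scramblase of the seed vesicles, by -0.13 ± 0.10, both with overlapping arrays. Tfeb read 7.94, 7.44 and 7.75 in short culture, 7.89, 7.82 and 7.70 in young long culture, and 7.87 and 7.81 in serial transplant long culture. These values overlapped, and the difference of 0.10 ± 0.13 had a 95% interval from -0.18 to 0.38. Tfeb activity is set largely by its phosphorylation and place in the cell, which RNA does not show.

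**Figure D2:**
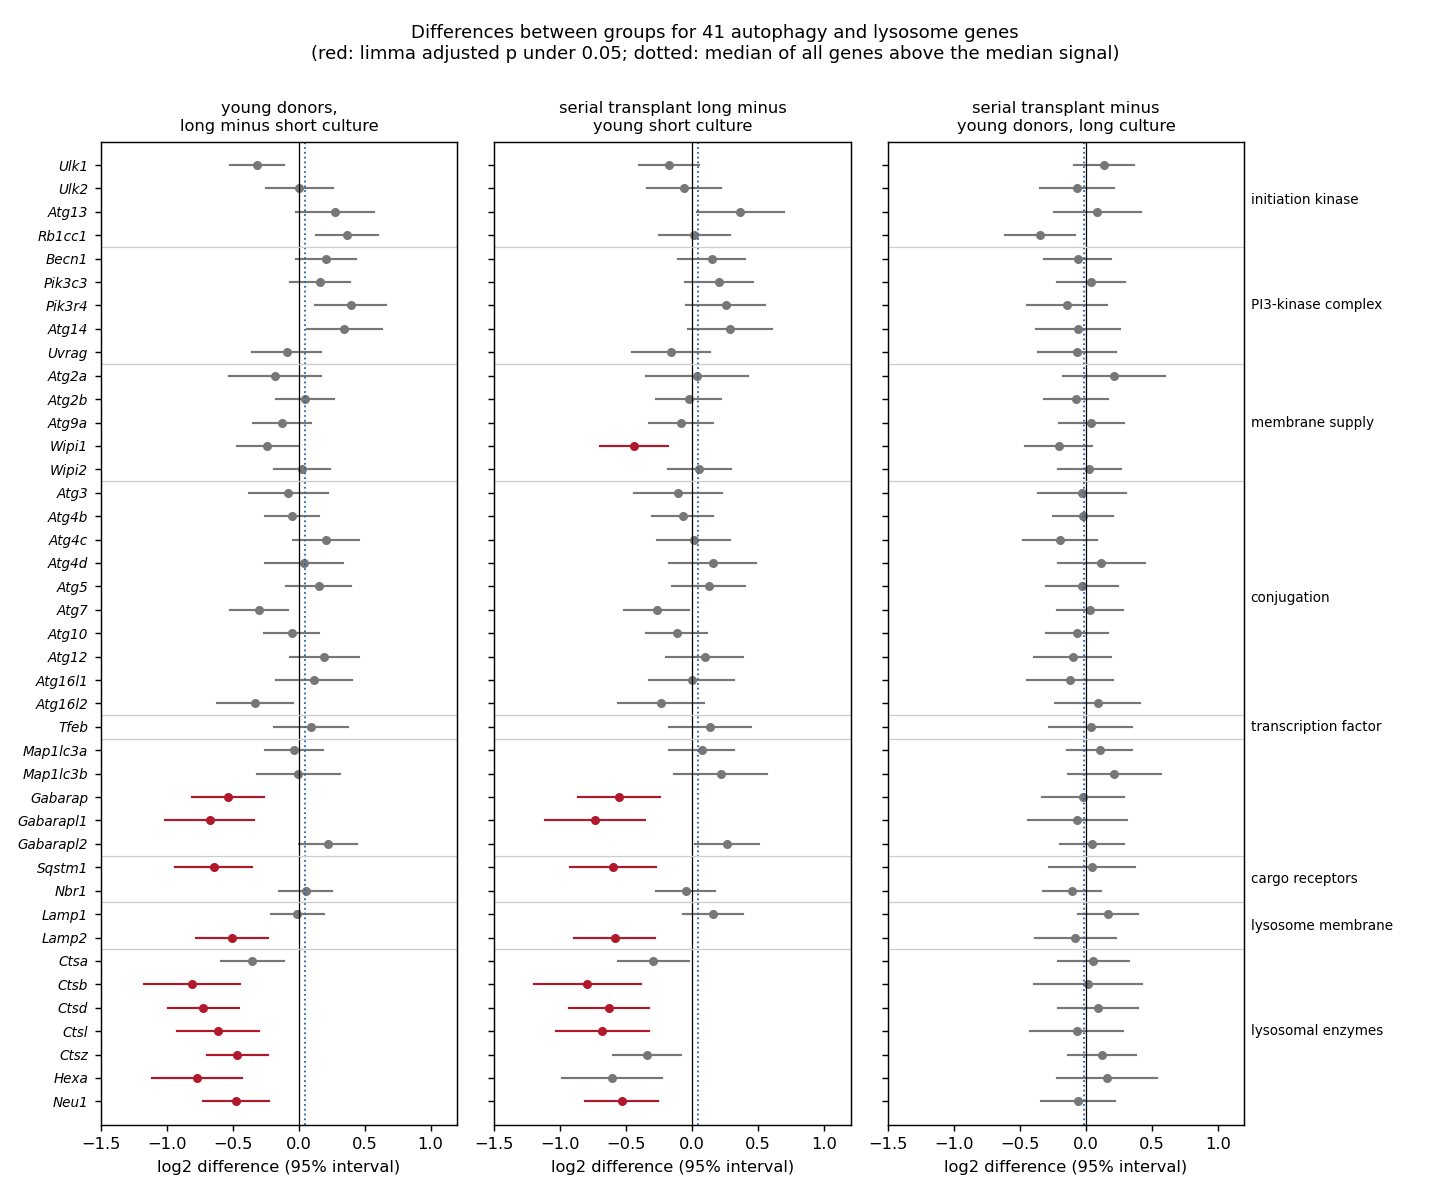
Log2 difference with its 95% interval (horizontal axis) for the 41 genes, ordered by role, in the 3 comparisons; red marks a limma adjusted p under 0.05 and the dotted line the median of all genes above the median signal. The first panel has 10 red points and the second 9, all below 0 and most of them lysosomal genes, and the third has none.

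The serial transplant cells in long culture were next set against the young short-culture cells, which are the same control arrays as above. Lysosomal genes, Sqstm1, Gabarap and Gabarapl1 were again lower, with 9 of 41 genes that fell and 0 that rose, where 5.96% of all genes fell and 4.1% rose (7.92% and 6.63% of those above the median signal). The 9 were Ctsb (-0.79 ± 0.19), Gabarapl1 (-0.74 ± 0.17), Ctsl (-0.68 ± 0.16), Ctsd (-0.63 ± 0.14), Sqstm1 (-0.60 ± 0.15), Lamp2 (-0.59 ± 0.14), Gabarap (-0.56 ± 0.14), Neu1 (-0.53 ± 0.13) and Wipi1 (-0.44 ± 0.12), with adjusted p-values from 0.0178 to 0.0386. Of these, 8 also fell in young long culture, which is no independent support because the control arrays are shared. Hexa (-0.61 ± 0.17, adjusted p = 0.0530) and Ctsz (-0.34 ± 0.12, adjusted p = 0.106) did not pass. When only the arrays of these groups entered the fit, none of the 9 passed, and without serial transplant replicate 1 or 2 the count was 3 or 0. Without short-culture replicate 2 it was 8, of which 7 were among the 9.

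Wipi1, which binds the lipid made by the Pik3c3 complex, passed in this comparison alone. It read 7.83, 7.77 and 7.69 in young short culture, 7.48, 7.58 and 7.52 in young long culture, and 7.18 and 7.47 in serial transplant long culture. The groups with long culture lay below short culture on every array, and serial transplant replicate 1 was the lowest. Its difference between the long-culture groups was -0.21 ± 0.12 (adjusted p = 0.776), so a response particular to serial transplantation was not shown. With each array left out in turn, Wipi1 passed in 1 of 8 fits. Wipi2, its relative, differed from short culture by 0.05 ± 0.11. Of the other core autophagy genes none passed in this comparison, and they lay between -0.27 (Atg7, adjusted p = 0.188) and 0.36 (Atg13, adjusted p = 0.181).

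Between serial transplant and young cells in long culture, no autophagy or lysosome gene passed the test. Of the 41 genes 0 passed in limma, as did 0 of 28944 probe sets and 0% of all genes, and 1 of the 41 against 7.21% of all genes had an unadjusted p under 0.05. Differences ran from -0.35 to 0.22 with a median of -0.02. The gene with the unadjusted p under 0.05 was Rb1cc1, at 9.18, 8.89 and 9.09 in young and 8.60 and 8.81 in serial transplant cells (-0.35 ± 0.12, adjusted p = 0.562), and its short-culture values of 8.75, 8.64 and 8.68 overlapped those of the serial transplant cells. For Ctsd the 95% interval of this difference ran from -0.21 to 0.40, and for Ctsb from -0.39 to 0.42. Neither interval includes a further fall of the size seen between culture times for that gene.

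A wider set of 131 genes of the same systems was also measured. Among all genes above the median signal, 8.24% fell and 9.68% rose in young cells, and 7.92% fell and 6.63% rose in serial transplant cells. These shares are the background for every smaller list below. Of the 131, 30 fell and 6 rose with long culture in young cells (median -0.14). In serial transplant cells 28 fell and 2 rose (median -0.15), and the rises in both comparisons lay below those shares. These counts rest on single arrays: the 36 genes that passed in young cells became 13, 15 and 7 without young long-culture replicate 1, 2 or 3, and 18 without short-culture replicate 1 or 2, and the 30 in serial transplant cells became 16 and 1 without serial transplant replicate 1 or 2. Among 30 other lysosomal enzymes, 7 fell and 1 rose in young long culture (median -0.21). Lipa, the acid lipase that splits cholesteryl esters, read 9.93, 10.42 and 9.82 in short culture, 9.49, 9.03 and 9.33 in young long culture, and 9.05 and 8.46 in serial transplant long culture. It fell by 0.77 ± 0.19 in young cells (adjusted p = 0.0263) and by 1.30 ± 0.21 in serial transplant cells (adjusted p = 0.00583). Arsa, arylsulfatase A, changed by -0.93 ± 0.19 in young cells, Gaa, the acid glucosidase that degrades glycogen, by -0.64 ± 0.13, and Gla, alpha-galactosidase A, by -0.55 ± 0.12 (adjusted p between 0.0114 and 0.0140). Ctsf, the cathepsin that rose, was named after its value of 0.54 ± 0.14 was seen (adjusted p = 0.0326).

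Other lysosomal membrane genes numbered 20, of which 8 fell and 0 rose in young cells (median -0.21). Scarb2, the receptor that carries glucocerebrosidase to the lysosome, fell by 0.95 ± 0.24, Laptm4b by 0.74 ± 0.14 and Ostm1, the partner of the chloride transporter Clcn7, by 0.60 ± 0.11 (adjusted p between 0.00764 and 0.0303). Laptm5, a lysosomal protein of blood cells, changed most, from 7.30, 8.41 and 7.42 in short culture to 5.37, 5.51 and 5.40 in young long culture (-2.29 ± 0.23, adjusted p = 0.000598). It stands on the macrophage marker list too, and its long-culture mean of 5.42 lay within the span of the arrays' lower quartiles (5.32 to 5.52), in the range of background, so the size of its fall is a lower bound. Igf2r, the mannose 6-phosphate receptor that sorts hydrolases to the lysosome, fell by 0.61 ± 0.14 (adjusted p = 0.0173) and was the 1 of 5 sorting genes that passed.

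The V-ATPase, the proton pump that acidifies the lysosome, had 6 of 18 measured genes lower and 0 higher in young long culture, with a median of -0.26. Atp6v0b, a subunit of the membrane ring, read 11.24, 10.87 and 11.10 in short culture, 10.39, 10.39 and 10.54 in young long culture, and 10.79 and 10.45 in serial transplant long culture. The change was -0.63 ± 0.13 (adjusted p = 0.0111), and unlike the cathepsins it was not highest in short-culture replicate 2. The accessory subunits Atp6ap1 and Atp6ap2 changed by -0.60 ± 0.14 and -0.53 ± 0.13, and Atp6v0e by -0.53 ± 0.13 (adjusted p between 0.0215 and 0.0289).

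Of 29 regulatory genes, of the Tfeb family, mTORC1 and AMPK, 3 rose and 4 fell in young cells, where 9.68% of genes above the median signal rose and 8.24% fell, so the rises lay near the background. The Rag GTPases tether mTORC1 to the lysosome when amino acids are present. Rragb read 6.75, 6.28 and 6.94 in short culture, 8.09, 7.89 and 7.92 in young long culture, and 7.81 and 7.80 in serial transplant long culture. This was a 2.48-fold rise (1.31 ± 0.15, adjusted p = 0.00123), the largest of the wider set. Rragd (0.61 ± 0.16) and Rraga (0.40 ± 0.11), both named after their values were seen, rose as well (adjusted p of 0.0328 and 0.0474), and Rragc fell by 0.63 ± 0.17 (adjusted p = 0.0345). Prkaa1, a catalytic subunit of AMPK, changed by -0.90 ± 0.19 (adjusted p = 0.0127) and Fnip1, a partner of folliculin, by -0.47 ± 0.11 (adjusted p = 0.0240).

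Of 22 other autophagy genes, 1 rose and 2 fell in young cells, and 1 rose and 4 fell in serial transplant cells. In young cells these counts are near or below the shares of all genes above the median signal (9.68% rose and 8.24% fell), and are no result about the list. Atg101, a partner of Atg13 in the Ulk1 complex, rose by 0.61 ± 0.15 in young cells (adjusted p = 0.0238) and by 0.82 ± 0.17 in serial transplant cells (adjusted p = 0.0129). The processing protease Atg4a, named after its values were seen, fell by 0.67 ± 0.19 in young cells (adjusted p = 0.042). In serial transplant cells Atg4a fell by 0.80 ± 0.21 (adjusted p = 0.0377). Tecpr1, a factor in the fusion of autophagosomes with lysosomes, fell by 0.54 ± 0.11 and 0.60 ± 0.12 (adjusted p of 0.00993 and 0.0112). Epg5, a tether in the same step, and Rab7, the GTPase of late endosomes, passed in serial transplant cells, at -0.54 ± 0.12 and -0.56 ± 0.14 (adjusted p of 0.0180 and 0.0325). Young cells gave -0.20 ± 0.11 and -0.42 ± 0.13 for them, and the difference between the long-culture groups passed for no gene. Among 7 mitophagy genes, Pink1 (-0.53 ± 0.12, adjusted p = 0.0163) and the mitochondrial receptor Fundc1 (-0.64 ± 0.15, adjusted p = 0.0232) fell and the receptor Bnip3l rose (0.36 ± 0.10, adjusted p = 0.0402).

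**Figure D3:**
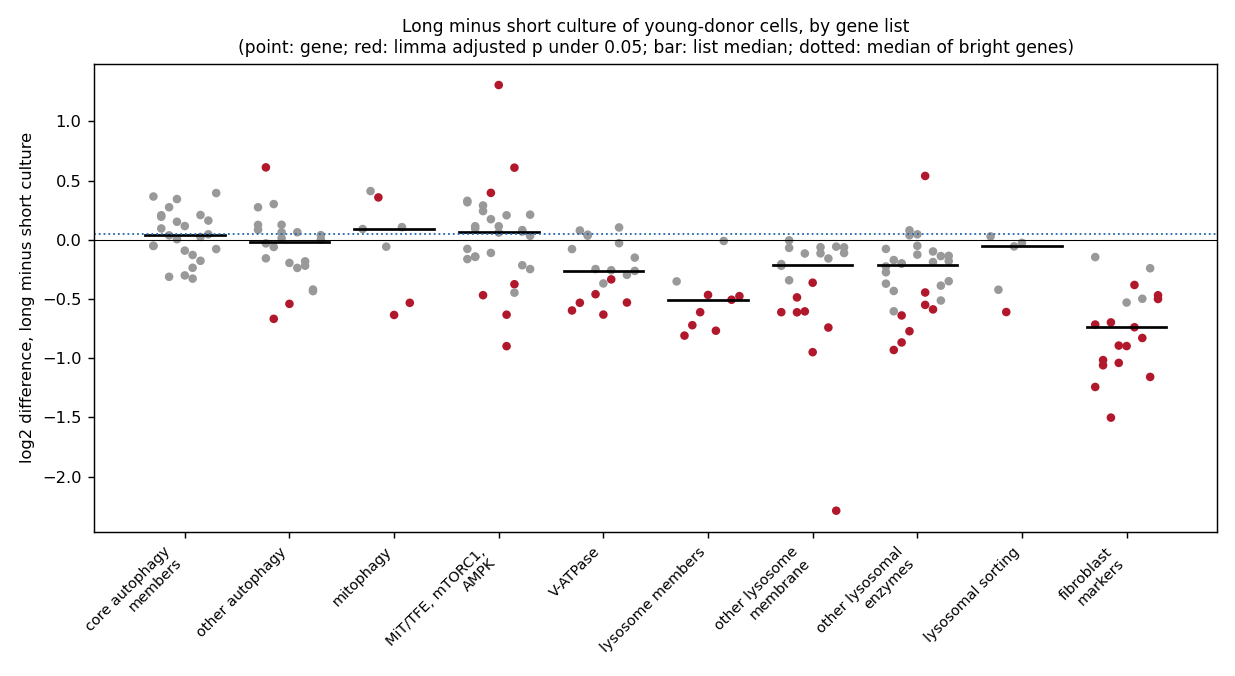
Log2 difference between long and short culture of young-donor cells (vertical axis) for every measured gene of the listed groups; each point is a gene, red marks a limma adjusted p under 0.05, the bar is the group's median and the dotted line the median of all genes above the median signal (0.04). The 25 core autophagy genes centre on 0.04 with none in red, and lysosome members on -0.51 with 7 of 9 in red. Fibroblast markers centre on -0.74 with 15 of 19 in red. Map1lc3a, Map1lc3b, Gabarap, Gabarapl1, Gabarapl2, Sqstm1 and Nbr1 are not shown, and of these Gabarap, Gabarapl1 and Sqstm1 fell.

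Of the markers of other cell types, most fibroblast markers fell with long culture, while the other lists moved in part or not at all. The labelled cell type was checked against its markers, and 14 of 14 genes of undifferentiated spermatogonia and 6 of 6 general germ cell genes lay above the median signal. Of the 14, 3 fell in young long culture, namely Lhx1 (-1.30 ± 0.22), Bcl6b (-1.004 ± 0.16) and Id4 (-0.80 ± 0.12), and 3 rose, namely Nanos3 (0.79 ± 0.13), Ret (0.75 ± 0.19) and Lin28a (0.45 ± 0.11), with adjusted p from 0.00353 to 0.0281. Of the 6 germ cell genes Dazl (0.46 ± 0.11) and Tex101 (0.51 ± 0.12) rose (adjusted p of 0.0254 and 0.0205). The summed linear signal of the 14 genes was 14208, 10154 and 13925 in short culture, 14581, 12729 and 14042 in young long culture, and 13195 and 13118 in serial transplant long culture, lowest on short-culture replicate 2. Fibroblast markers were also abundant, with 17 of 19 above it and 1, Lum, below the lower quartile of every array, and 15 of 19 fell in young long culture (median -0.74) and 15 in serial transplant long culture (median -1.12). Their summed linear signal was 39397, 54094 and 36134 in short culture, 24315, 23726 and 23619 in young long culture, and 23884 and 15922 in serial transplant long culture. The sum over the 7 lysosomal enzymes was 16030, 18749 and 13693, then 10113, 10381 and 10390, then 11493 and 10117 for the same arrays in the same order. Within short culture both sums ranked replicate 2 first and replicate 3 last. Of the 11 genes that fell in any comparison, 10 had their highest value on replicate 2. All 11 were higher on every short-culture array than on every long-culture array, so their top array had to be a short-culture one. The share of all genes with this pattern was not counted, so it is no separate result. Within young long culture each sum differed little between arrays, so their ranks are not read. In the serial transplant group both sums were lower on replicate 2.

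The sum over the 25 core autophagy genes was 13074, 11296 and 12678 in short culture, 13599, 12543 and 13278 in young long culture, and 12507 and 13230 in serial transplant long culture, so short-culture replicate 2 was the lowest array there. Of the macrophage markers 1 of 15 lay above the median signal, namely Cd68, which differed by -0.0047 in young cells and did not pass. Laptm5 (-2.29), Fcer1g (-1.69), Ptprc (-1.42) and Tyrobp (-0.86) were the 4 that fell in young cells. The other 11 did not pass, among them Csf1r (-0.27), Cd14 (-0.19) and Lyz2 (-0.12). The sums over the 15 were 1311, 1655 and 1270 in short culture against 832 to 939 in long culture. Of 6 measured Leydig cell markers 1 lay above the median signal and 3 fell in young cells, namely Cyp11a1 (-2.35 ± 0.24), Star (-0.996 ± 0.24) and Nr5a1 (-0.51 ± 0.11), with adjusted p from 0.000678 to 0.0250. Their sums were 830, 476 and 557 in short culture against 277 to 307 in long culture. Of 9 Sertoli cell markers 4 lay above the median and Wt1 alone passed in young cells, with a rise (0.90 ± 0.17, adjusted p = 0.00838), and the sums of 1874, 2068 and 1640 in short culture overlapped those of 1363 to 1807 in long culture. Endothelial markers were dim, with 0 of 7 above the median, and 0 passed in young cells. The part of the fibroblast, macrophage, Leydig and germ cell signals in the falls of the lysosomal genes, Sqstm1, Gabarap and Gabarapl1 was not tested.

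**Figure D4:**
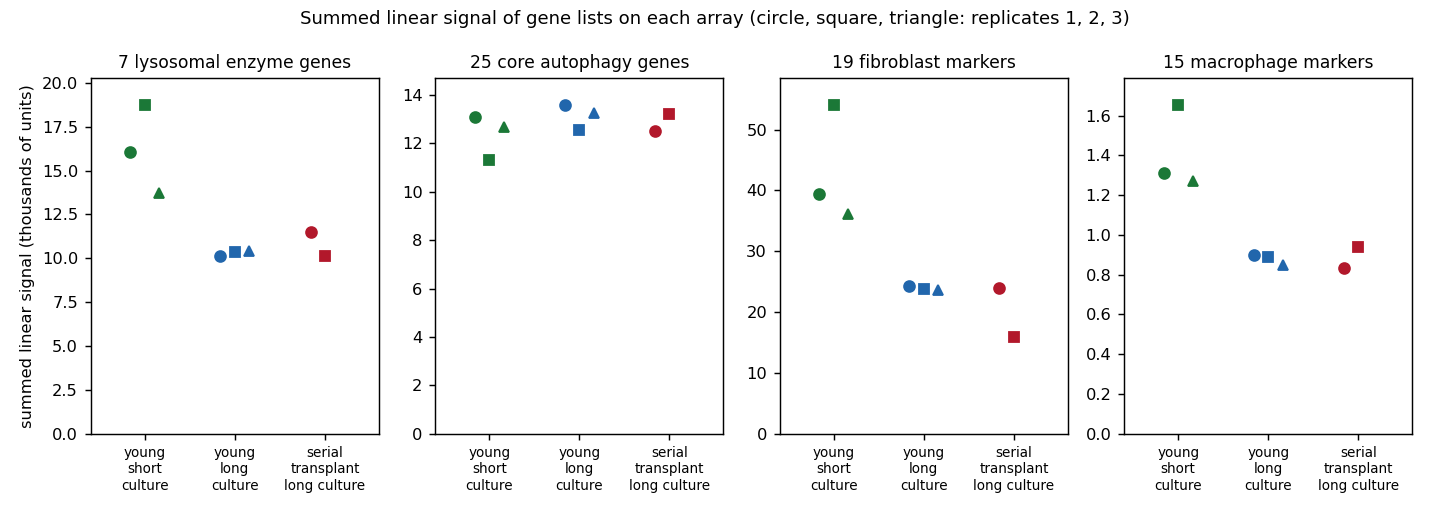
Summed linear signal (vertical axis, scaled as labelled and starting at 0) of 4 gene lists on each array, by group; circles, squares and triangles are replicates 1, 2 and 3. The sums of 7 lysosomal enzymes, 19 fibroblast markers and 15 macrophage markers are higher on all 3 short-culture arrays than on the 5 long-culture arrays, and those of 25 core autophagy genes overlap.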

How the data were processed

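Gene expression was measured on 8 Affymetrix arrays, and the authors deposited a log2 signal for each probe set. The submitters' processing notes name Partek 6.4 and RMA, which subtracts background and normalizes between arrays and calls nothing absent. That the scale is log2 follows from the values (2.16 to 14.81). Of 35557 rows, 6613 in the leading run of consecutive identifiers were taken as controls and left out. Among the 28944 kept, 21789 had 1 gene symbol in the platform annotation, 1621 several and 5534 none. A gene was read from its brightest probe set with 1 symbol. Groups came from the labels. limma 3.58.1 in R 4.3.3 was fitted on all arrays with 1 coefficient per group (two-sided, with 5 residual degrees of freedom plus 6.28 from the prior), Benjamini-Hochberg adjusted over all probe sets at 0.05; errors are SE for differences and SD for means. The step was tested on simulated data. The genes and lists were chosen with earlier results of these data known. Per-array values are given for genes that passed in any comparison and for Tfeb, Map1lc3b, Sqstm1, Becn1, Ulk1 and Lamp1; up to 4 genes of each wider list with the smallest p are named. Alternatives were array weights, quantile normalization, the replicate block, each array left out, median centring, an intensity trend, the mean of a gene's probe sets, only the groups compared, and no dim probe sets; for the wider lists, leaving out arrays and centring were added after seeing the data. A grouping of some of the genes is not reported here.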

Additional observations from a re-analysis of the deposited data

How the results depend on the processing

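Leaving out each array in turn gave between 2 and 12 of the 41 genes that passed in young long against short culture, and between 0 and 11 in serial transplant long against young short culture, where the array left in the serial transplant group is assumed to vary like the other groups; the highest counts, without short-culture replicate 3, include a rise of Atg13 in both comparisons. For the 131 wider genes the counts that passed lay between 7 and 41 in the first comparison and between 1 and 38 in the second. With only the arrays of the groups compared in the fit, 0 of the 41 genes passed in the second comparison. The cause was not tested. Between serial transplant and young long culture 0 of 41 passed in every alternative run, while over all probe sets 22 passed with array weights, 15 with only those groups in the fit, 11 without short-culture replicate 2 and 4 with the replicate block.

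Differences near 0 changed sign between young long and short culture. Map1lc3b gave 0.10 with array weights, 0.0466 with median centring and -0.1154 to 0.1724 with arrays left out. Tfeb gave -0.0276 with array weights and -0.04 to 0.211 with arrays left out, and Lamp1 gave 0.0316 with array weights, 0.0379 with median centring and -0.0445 to 0.0445 with arrays left out. Tfeb in serial transplant against short culture ran from -0.0023 to 0.2486 with arrays left out. Ulk1 passed between young long and short culture with array weights (adjusted p = 0.0280), without dim probe sets (0.0357), with quantile normalization (0.0353) and with gene means (0.0465), and ran up to 0.140 otherwise. In the opposite direction Rb1cc1 passed as a rise in 6 and Pik3r4 in 3 of 16 alternatives (lowest adjusted p of 0.0178 and 0.0310), and Atg7 and Ctsa passed as falls in 1 and 3. Median centring turned the share of higher calls over all probe sets from 1573 of 3260 to 1970 of 3301. The E-box extended to TCACGTGA occurred in 3 of the 34 genes with a window, where the core occurred in 8.

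For arrays with the same replicate number, deviations from the group means correlated with r of 0.08, 0.18 and 0.10 between the young groups. With the serial transplant group r was -0.05, -0.13, -0.18 and -0.27. Young arrays of different number ran from -0.28 to 0.25. Deviations within a group sum to 0, which constrains these values, so they cannot decide whether replicate numbers pair the arrays. With the replicate block, 10, 9 and 0 genes passed in young long against short, serial transplant against short and serial transplant against young long culture, with medians of -0.05, -0.06 and -0.03; in the second, Hexa passed and Wipi1 did not.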
